A study of Mus musculus with 24 samples.

Results

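Resting cortical neurons in which Smarcc2 had been knocked out and replaced by the S586E form were compared with resting neurons carrying the wild-type form. The comparison rests on 5 of the 24 libraries of the series, chosen by their labels: 3 with S586E and 2 with wild-type Smarcc2 (WT). All 5 came from primary neurons of mouse cortex taken at embryonic day 16.5 and grown for 18 days, and all 5 carried the CRISPR guide against Smarcc2, so that they differ by label only in the construct added back. They were silenced overnight with 1 µM tetrodotoxin, which blocks sodium channels, and 100 µM D-AP5, which blocks NMDA receptors, and received no KCl. For reference, 2 resting libraries with a non-targeting guide (NT) and 3 with the Smarcc2 guide and an empty vector received the same silencing. The growth protocol counts the cortex of each embryo as a biological replicate. The labels do not give the promoter of the addback constructs, the way they were delivered, the number of guides or the share of cells that kept any protein.

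Smarcc2 (BAF170) and its paralog Smarcc1 (BAF155) are scaffold subunits of the BAF family of chromatin remodellers, which use ATP to move or evict nucleosomes. BAF complexes assemble around a Smarcc pair, and their subunit makeup changes as neural progenitors become neurons. Replacing serine by glutamate is a common way to imitate a phosphorylated residue, and replacing it by alanine, as in the S586A form, is a common way to prevent phosphorylation. S586A was sequenced in the series only after depolarization with 50 mM KCl for 30 min, so its values are given beside those of S586E and not compared with them.

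The 5 libraries held 18890480 to 24024959 estimated counts. They differed in composition. Small structural RNAs such as Rn7sk took 11.9% and 8.76% of WT counts in replicates 1 and 2 and 7.34% to 8.14% of S586E counts. Lars2, a gene that collects ribosomal RNA reads, stood at 590 and 280 CPM (counts scaled by TMM-normalised library size) in WT, at 43.3, 229 and 42.6 in S586E, and at 34.8 to 62.6 in the NT and vector libraries. The rRNA-collecting genes together took 4.77% and 3.59% of WT counts and 5.12%, 4.66% and 3.74% of S586E counts, so that in the sum the groups overlapped. The part of these shares in the results was not tested.

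The substitution is named by residue number, so the codon at that position is shown for the annotated transcripts. The windows were read from GENCODE M21 transcripts on build GRCm38, with the codon at the residue number of S586E in capitals and 30 coding bases on either side.
Smarcc2-202: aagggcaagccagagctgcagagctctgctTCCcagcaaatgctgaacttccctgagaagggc
Smarcc2-201 and Smarcc2-203: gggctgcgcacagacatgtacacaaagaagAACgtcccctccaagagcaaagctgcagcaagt
Smarcc1-201: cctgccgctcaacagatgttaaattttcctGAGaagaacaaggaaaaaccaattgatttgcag
This was a serine codon only in Smarcc2-202, where it lies at chr10:128482095-128482097 on the plus strand, in exon 19 of 29. In Smarcc2-201 and Smarcc2-203 the same serine codon has position 555, and in Smarcc1-201 the codon at the number of the substitution is a glutamate codon. The labels do not say which numbering the construct follows.

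Smarcc2 RNA was above the native level with both constructs and higher with S586E than with WT. Its level was 816 and 756 CPM with WT and 1236, 1164 and 1276 CPM with S586E, against 265 and 237 with NT and 47.1, 49.8 and 64.1 with vector. Every S586E library stood above both WT libraries, and all 5 stood above NT. The means were 786 ± 42.6 (SD, n = 2) and 1225 ± 57.1 (SD, n = 3), a log2 fold change of 0.64 (95% interval 0.35 to 0.93) that did not pass the test across all genes (edgeR adjusted p = 0.114, from 1.42e-08 to 0.669 over the alternatives). The lowest of these adjusted p values came from the fit with no low-count filter, which did not keep gene-specific spread. Since Smarcc2 RNA was higher with S586E, dose of the added gene and the substitution cannot be told apart in this comparison. Under KCl, S586A exceeded WT by 0.54 on the log2 scale (adjusted p = 0.338).

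The added Smarcc2 was also assigned to other transcripts than the native gene. Smarcc2-202 took 59.5% and 56.5% of the gene's counts in NT, 0.990% and 1.94% in WT, and 1.26%, 1.92% and 2.09% in S586E. Smarcc2-203 took 9.52% and 14.9% in NT, 59.6% and 60.6% in WT, and 58.1%, 60.5% and 61.1% in S586E. WT and S586E overlapped in both shares and stood apart from NT. The paralog Smarcc1 was at 87.4 and 88.8 CPM in WT and at 99.4, 85.0 and 86.3 CPM in S586E, with overlapping groups (log2 fold change 0.03, adjusted p = 0.911).

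Across the 20940 genes tested, none passed the edgeR test at an adjusted p under 0.05 (0.00%), and the lowest adjusted p was 0.103. At an unadjusted p under 0.05 there were 2696 genes (12.9%), of which 1310 (6.26%) were higher and 1386 (6.62%) lower with S586E. All S586E libraries stood above both WT libraries in 3128 genes (14.9%) and below them in 3428 genes (16.4%). DESeq2 called 330 of the 41141 genes with a p-value (0.802%), 204 higher and 126 lower. It left genes with few counts, such as Ramp2, without an adjusted p, so its share among adjusted genes is larger. A fit of only these 5 libraries called 43 of 18504 (0.232%), 21 higher and 22 lower. Of those 43, 30 were among the DESeq2 calls. The differences named from here on did not pass the main test unless another tool is named. Counts of list members are at an unadjusted p under 0.05, to be read against 6.26% higher and 6.62% lower among all genes. Counts of members without overlap are to be read against 14.9% above and 16.4% below. List counts called by DESeq2 or the 5-library fit are to be read against 0.802% and 0.232%. All lists were chosen with earlier results of these data known, so their counts are descriptions. In bulk RNA, fewer cells of a type and less RNA per cell cannot be told apart.

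The 10 genes with the smallest p among those higher with S586E were Tnr, Plxna4, Hivep3, Sdk1, Sipa1l3, Cacna1e, Hipk4, Kcnq3, Auts2 and Ryr2. Tnr, which encodes the matrix glycoprotein tenascin-R of perineuronal nets, was at 150 and 148 CPM in WT and at 262, 224 and 225 CPM in S586E. NT (196 and 193) and vector (214, 183 and 206) lay between the 2 groups. The log2 fold change was 0.67 (SE 0.11, adjusted p = 0.103), and both DESeq2 and the 5-library fit called it. Plxna4, a plexin receptor for class 3 semaphorins, was at 256 and 259 CPM in WT and at 435, 367 and 358 CPM in S586E (log2 fold change 0.59, SE 0.0998, adjusted p = 0.103). WT was again the lowest of the 4 resting groups, with NT and vector from 316 to 358. Sdk1, a synaptic adhesion molecule, was at 11.6 and 9.73 CPM in WT and at 19.8, 17.7 and 18.4 CPM in S586E, a log2 fold change of 0.80. Hipk4 (0.91), Hivep3 (0.48), Auts2 (0.44), Sipa1l3 (0.39) and Ryr2 (0.44), an intracellular calcium release channel, were higher too.

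**Figure D1:**
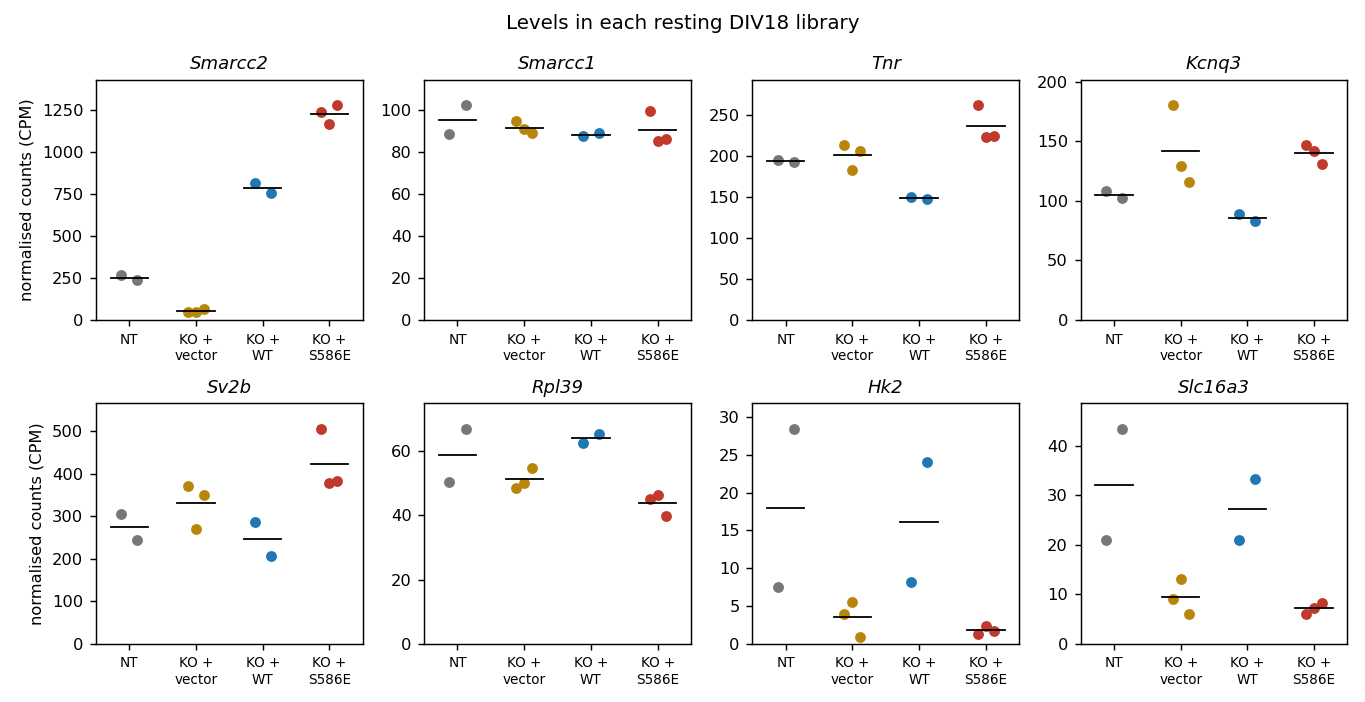
Normalised counts (CPM, linear axis from 0) of 8 genes in each of the 10 resting libraries: points are libraries and bars are group means. Smarcc2 is highest with S586E (1164 to 1276) and Smarcc1 is level, Tnr and Kcnq3 are lowest with WT, and Hk2 and Slc16a3 are spread in NT and WT and low with vector and S586E.

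Among the first 10 on the lower side of the same ranking, 4 encode ribosomal proteins. Cdc25b, a phosphatase that activates cyclin-dependent kinases, was at 12.1 and 11.8 CPM in WT and at 4.94, 6.46 and 6.53 CPM in S586E. Its log2 fold change was -1.0 (SE 0.183, adjusted p = 0.103). Ramp2, a partner of the calcitonin-like receptor, was at 4.36 and 5.46 CPM in WT and at 1.10, 1.30 and 1.36 CPM in S586E, a log2 fold change of -1.96 (adjusted p = 0.114). Adh5 (-0.49), which clears formaldehyde, Txndc5 (-0.46), a protein disulfide isomerase of the endoplasmic reticulum, and Mvb12a (-0.78), an ESCRT-I subunit, were lower too. The remaining genes of this group named by rank were the ribosomal protein genes Rpl39, Rpl17, Rps27 and Rps14 and the lactate exporter Slc16a3.

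Genes of the voltage-gated channels that set neuronal excitability were, as lists, higher with S586E than with WT. Against vector, the median log2 fold change was 0.06 with S586E and -0.21 with WT for potassium channels, and 0.05 and -0.18 for calcium channels. Of 22 potassium channel genes tested, 11 were higher and 0 lower, with a median log2 fold change of 0.28 against 0.01 over all genes. DESeq2 called 3 of them higher. Kcnq3, a subunit of the M-current channel that limits repetitive firing, was at 89.1 and 82.9 CPM in WT and at 147, 142 and 131 CPM in S586E. All S586E libraries also exceeded NT (108 and 102), while vector spanned 116 to 180. The log2 fold change was 0.70 (SE 0.137, adjusted p = 0.103), and DESeq2 and the 5-library fit called it. Kcnma1, the large-conductance calcium-activated channel, was at 346 and 329 CPM in WT and at 470, 444 and 443 CPM in S586E (log2 fold change 0.42, adjusted p = 0.114). The A-type channel gene Kcnd3 (0.41) and the G-protein-gated Kcnj6 (0.46) were higher as well without overlap.

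Of 18 calcium channel genes 11 were higher and 0 lower (median 0.28), and DESeq2 called 4. Cacna1e, the pore of R-type channels, was at 196 and 206 CPM in WT and at 294, 265 and 267 CPM in S586E. Vector (259 to 301) and NT (260 and 254) lay with or just below S586E (log2 fold change 0.45, adjusted p = 0.103). Others at an unadjusted p under 0.05 included the L-type pore Cacna1c (0.35), the T-type pore Cacna1g (0.30), the P/Q-type pore Cacna1a (0.39) and Cacng8 (0.56), an auxiliary subunit of AMPA receptors. Among 8 sodium channel genes, Scn8a (0.35) and Scn2a (0.18) were higher and the beta subunit gene Scn3b was lower (-0.34). Scn3b was at 103 and 127 CPM in WT and at 85.2, 94.5 and 93.9 CPM in S586E, opposite to the pore-forming genes. Without WT replicate 2 the counts were 5 potassium and 7 calcium channel genes, without S586E replicate 1 there were 6 potassium channel genes, and with effective-length offsets there were 7 calcium channel genes.

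Among receptors for glutamate and the scaffolds that hold them, all members at an unadjusted p under 0.05 were higher with S586E. Of 22 glutamate receptor genes, 8 were higher and 0 lower (median 0.20), and DESeq2 called 4. Against vector the median of these 22 was 0.02 with S586E and -0.24 with WT. Of the other 14, 6 had negative values, and the largest difference of the list in size was that of Grin2c, an NMDA receptor subunit gene at 2.47 and 2.37 CPM in WT and 0.934, 2.21 and 1.46 CPM in S586E (log2 fold change -0.64, adjusted p = 0.403). Grin2a, an NMDA receptor subunit, was at 297 and 303 CPM in WT and at 453, 411 and 374 CPM in S586E, without overlap (log2 fold change 0.46, SE 0.0966, adjusted p = 0.114). Grin2b, the subunit that prevails in younger neurons, was at 985 and 1096 CPM in WT and at 1494, 1434 and 1275 CPM in S586E (log2 fold change 0.43, adjusted p = 0.123). The metabotropic receptor Grm7 (0.49), the AMPA receptor subunits Gria1 (0.38) and Gria2 (0.31) and the kainate receptor subunit Grik5 (0.30) were also among the 8. Of 19 postsynaptic scaffold genes 9 were higher (median 0.16), while DESeq2 and the 5-library fit called 0. Shank1 (0.26), Shank2 (0.26) and the adhesion gene Nlgn3 (0.30) were among the 9. Leaving out 1 WT library moved these counts: glutamate receptor genes to 4 without WT replicate 2, and scaffold genes to 4 without WT replicate 1 and 5 without WT replicate 2. GABA-A receptor genes had 1 of 12 higher (median 0.09).

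On the presynaptic side 5 of 20 release genes were higher and 0 lower (median 0.16). Sv2b, a synaptic vesicle protein, was at 286 and 207 CPM in WT and at 505, 379 and 384 CPM in S586E. It had the largest difference of that list, with separate groups and a log2 fold change of 0.78 (SE 0.187, adjusted p = 0.123). Of 11 cortical layer genes 4 were higher, among them Tbr1, a deep-layer factor, at 102 and 86.8 CPM in WT and 163, 121 and 123 CPM in S586E (log2 fold change 0.52, adjusted p = 0.227). Of 9 general neuronal markers 7 were higher (median 0.26), including the neurofilament genes Nefh (0.77), Nefm (0.53) and Nefl (0.53). Nefh was at 35.4 and 29.0 CPM in WT and at 74.5, 45.9 and 44.3 CPM in S586E, and replicate 1 of S586E stood highest. The neuronal marker count was 1 without WT replicate 2 and 2 without S586E replicate 1. Interneuron markers had 2 of 14 higher, with a median of 0.17 that was -0.10 without WT replicate 2 and -0.02 without S586E replicate 1.

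Guidance receptor genes were listed after Plxna4 had been seen, so their count is a description only. Of 31 tested, 11 were higher and 2 lower (median 0.17). The higher ones included 3 class A plexins: Plxna4, Plxna2 (0.36), at 208 and 207 CPM in WT and 275, 271 and 254 CPM in S586E, and Plxna1 (0.31), at 295 and 293 CPM in WT and 367, 367 and 359 CPM in S586E. The Eph receptor genes Epha4 (0.32), Ephb2 (0.32) and Epha5 (0.19), the netrin receptor genes Unc5a (0.32), Unc5c (0.43) and Unc5d (0.49), and Robo2 (0.25) and Robo3 (0.62) made up the rest. Unc5b (-0.66) and Plxnd1 (-0.48), both known from blood vessels, were the 2 lower ones. The 5-library fit also called Sema3a, a secreted semaphorin, at 19.5 and 17.1 CPM in WT and 36.8, 31.0 and 34.2 CPM in S586E (log2 fold change 0.89), Prex1, a Rac exchange factor, at 110 and 117 CPM in WT and 218, 191 and 202 CPM in S586E (0.85), and the neuropeptide gene Cck, at 250 and 228 CPM in WT and 412, 413 and 385 CPM in S586E (0.75).

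**Figure D2:**
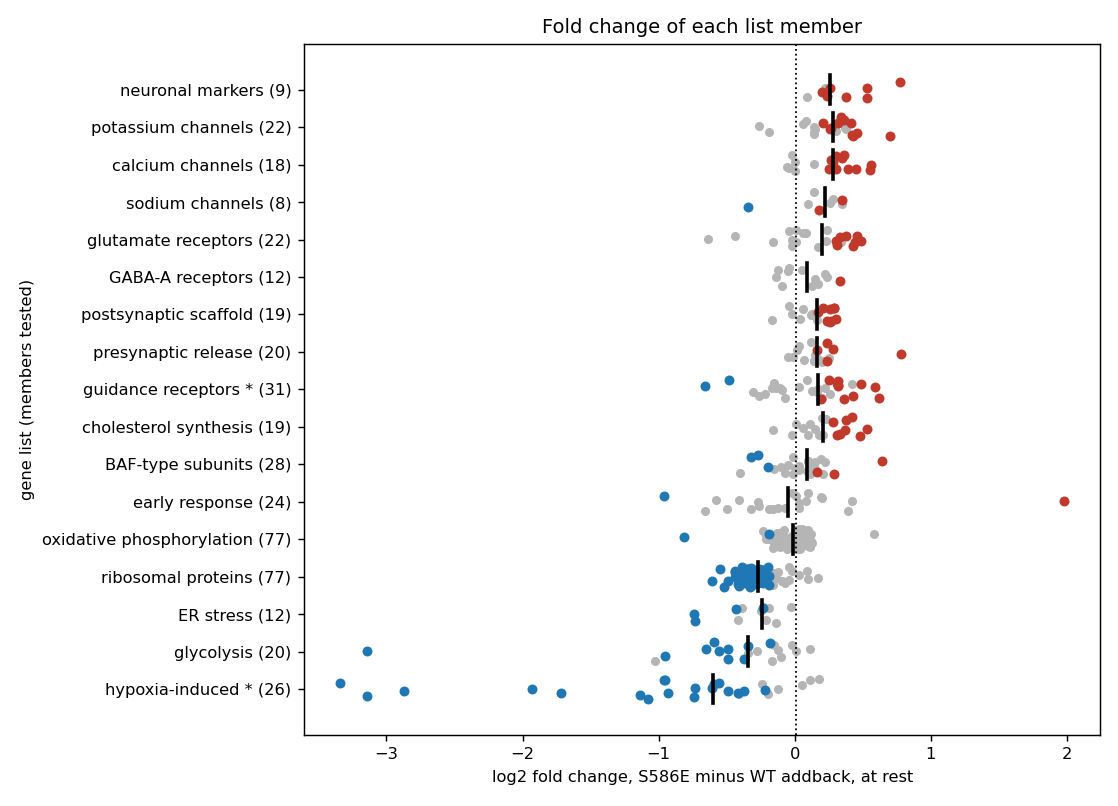
Log2 fold change of S586E against WT addback for each tested member of 17 gene lists: red points are higher and blue points lower at an unadjusted p under 0.05, grey points are the rest, black bars are list medians and the dotted line is the median of all genes (0.01). Asterisks mark the lists written after values had been seen, and all other lists were chosen with earlier results of these data known. Channel and receptor lists lie to the right, and the ribosomal protein (median -0.27), glycolysis (-0.34) and hypoxia-induced (-0.60) lists to the left.

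Genes of the cytosolic ribosome were lower with S586E as a list. Of 77 ribosomal protein genes tested, 53 were lower and 0 higher, with a median log2 fold change of -0.27. In 63 of the 77 all S586E libraries stood below both WT libraries, against 16.4% of all genes tested. DESeq2 called 20 of the 77 lower, the 5-library fit 2, and a fit with the replicate number as a block 2. Against vector the list median was 0.03 with S586E and 0.31 with WT. Their summed level was 8495 to 8689 CPM in WT and 6843 to 7570 CPM in S586E, so the groups did not overlap in the sum either. Rpl39, a small protein of the exit tunnel, was at 62.6 and 65.5 CPM in WT and at 45.1, 46.5 and 39.8 CPM in S586E. NT (50.5 and 66.9) and vector (48.7, 50.2 and 54.9) reached from just above S586E to just above WT (log2 fold change -0.55, SE 0.107, adjusted p = 0.103). Rps27 was at 64.6 and 59.2 CPM in WT and at 40.8, 42.2 and 38.6 CPM in S586E (-0.61), Rps14 at 246 and 229 CPM against 167, 178 and 150 CPM (-0.52), and Rpl17 at 118 and 112 CPM against 89.4, 83.3 and 81.9 CPM (-0.44). Ribosomal protein genes have many processed copies, among which reads can be split. Nuclear genes of oxidative phosphorylation had 2 of 77 lower and 0 higher (median -0.01; up to 0.06, without S586E replicate 3). The 13 protein genes of the mitochondrial genome had 0 in either direction (median 0.11; -0.02 with the replicate block).

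Histone genes, whose messages mostly lack a poly(A) tail and are kept in a total RNA library, had 10 of 62 lower and 0 higher (median -0.12; 0.07 without WT replicate 1). Hist4h4 was at 55.7 and 41.4 CPM in WT and at 31.3, 33.0 and 29.2 CPM in S586E, where the WT libraries were above all others at rest (log2 fold change -0.64, adjusted p = 0.114). Histone genes are near-identical copies, and their single values are uncertain. The small structural RNAs had 4 of 8 lower, with a median of -0.24 that was 0.03 without WT replicate 1. Of these 4, Rn7s1 and Rn7s2 carry identical values in every library, and only Rn7sk had groups that did not overlap, at 15486 and 11757 CPM in WT and at 11132, 10403 and 9296 CPM in S586E. WT replicate 1 was the highest of the 5 libraries for both Hist4h4 and Rn7sk. Whether the histone values move with the small RNAs was not tested.

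The direction of the differences varied with the annotated span of a gene. The protein-coding genes tested were cut by span into 5 classes of 3116 genes. In the shortest class (0.204 to 8.08 kb) 3.43% were higher and 12.6% lower with a median of -0.07, and in the longest class (75.5 to 4435 kb) 15.5% were higher and 3.59% lower with a median of 0.07. Plxna4, at chr6:32144268-32588192, belongs to the longest class and Rps27, at chr3:90212522-90213651, to the shortest (GENCODE M21, GRCm38). The part of gene span in the list counts was not tested. Across 5 classes of transcript GC content the shares were flatter, at 5.42% to 8.31% higher and 6.1% to 9.44% lower. With effective-length offsets the longest class had 12.1% higher and 2.86% lower, and with GC offsets 16.4% and 3.21%. The median deviation of the shortest class was 0.08 and 0.04 on the log2 scale in WT replicates 1 and 2, and 0.02, -0.00 and -0.06 in the S586E libraries. NT was at -0.02 and 0.01 and vector at -0.02, -0.01 and -0.05, so WT was above all other resting libraries in the shortest class. For the longest class the median deviation was -0.04 and -0.06 in WT and 0.04, 0.01 and 0.00 in S586E. There NT was at 0.02 and -0.00 and vector at 0.07, -0.01 and -0.01, so WT was below all other resting libraries.

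**Figure D3:**
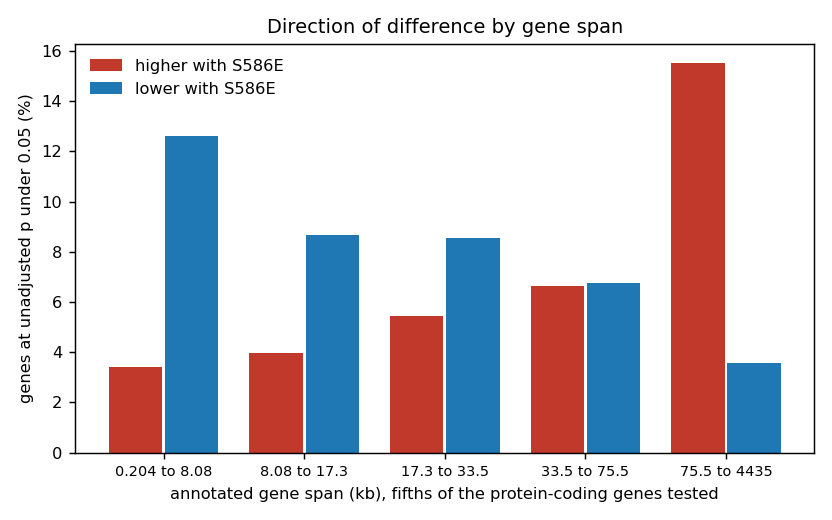
Percent of protein-coding genes higher (red) or lower (blue) with S586E at an unadjusted p under 0.05, in 5 classes of 3116 genes by annotated span in kb. Lower genes prevail in the shortest class (12.6% against 3.43%) and higher genes in the longest (15.5% against 3.59%).

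Genes of glucose uptake and glycolysis were lower with S586E. Of 20 tested, 10 were lower and 0 higher (median -0.34). Hk2, the inducible hexokinase, was at 8.11 and 24 CPM in WT and at 1.26, 2.39 and 1.72 CPM in S586E. The groups were separate, but WT replicate 2 stood far above WT replicate 1, and NT was as spread (7.48 and 28.4), while vector was low (3.99, 5.59 and 0.892). The log2 fold change was -3.14 (SE 0.745, adjusted p = 0.123), and both DESeq2 and the 5-library fit called it. The glucose transporter gene Slc2a1 was at 58.3 and 82.4 CPM in WT and at 38.7, 37.9 and 32.6 CPM in S586E (-0.95), and lactate dehydrogenase Ldha at 326 and 361 CPM against 247, 234 and 207 CPM (-0.59). Gpi1 (-0.56), Eno1 (-0.49), Pfkl (-0.65), Tpi1 (-0.34) and Pdk1 (-0.49), which restrains pyruvate entry into the mitochondrion, were lower too. Pgk1 was at 571 and 588 CPM in WT and at 465, 479 and 403 CPM in S586E (-0.37), but at 1292, 1269 and 1278 CPM with vector, apart from every other resting library.

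Several of these genes are known to be induced by low oxygen through hypoxia-inducible factors, which bind DNA at elements that contain CGTG. A list of 26 such genes was written after the values of Hk2 and Slc16a3 had been seen. It holds both of them and also Slc2a1, Pgk1, Ldha and Pdk1 of the glycolysis list, so its counts and medians are a description only. Of the 26, 19 were lower and 0 higher with a median of -0.60. All S586E libraries stood below both WT libraries in 21 of the 26, against 16.4% of all genes tested. DESeq2 called 8 and the 5-library fit 6. Slc16a3, the lactate exporter MCT4, was at 21 and 33.3 CPM in WT and at 5.93, 7.20 and 8.25 CPM in S586E (log2 fold change -1.93, SE 0.41, adjusted p = 0.114). Bnip3, a mitophagy receptor, was at 174 and 283 CPM in WT and at 104, 133 and 86.9 CPM in S586E (-1.08), and the growth factor gene Vegfa at 54.6 and 82.1 CPM against 30.4, 45.2 and 48.0 CPM (-0.73). In Slc16a3, Bnip3 and Vegfa, WT replicate 2 was above WT replicate 1. Fam162a (-0.96), Ndrg1 (-0.93), the prolyl hydroxylase Egln3 (-1.72), Ero1l (-0.56) and Adm (-0.74) were lower as well. Triobp, an actin-binding protein gene outside the list that the 5-library fit called, was at 15.0 and 27.1 CPM in WT and at 4.94, 6.29 and 6.01 CPM in S586E (-1.87).

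The 250 bases before the annotated start of Hk2 and Bnip3 show the letters concerned, with each match to ACGTG or its reverse complement CACGT in capitals (RefSeq, build GRCm38.p6). Hk2 lies at chr6:82774455-82774704 on the minus strand and Bnip3 at chr7:138909507-138909756 on the minus strand.
Hk2 upstream: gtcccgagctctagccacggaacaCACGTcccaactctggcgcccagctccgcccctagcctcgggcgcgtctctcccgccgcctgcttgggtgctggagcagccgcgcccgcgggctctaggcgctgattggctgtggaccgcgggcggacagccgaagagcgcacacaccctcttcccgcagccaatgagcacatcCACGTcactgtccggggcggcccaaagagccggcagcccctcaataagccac
Bnip3 upstream: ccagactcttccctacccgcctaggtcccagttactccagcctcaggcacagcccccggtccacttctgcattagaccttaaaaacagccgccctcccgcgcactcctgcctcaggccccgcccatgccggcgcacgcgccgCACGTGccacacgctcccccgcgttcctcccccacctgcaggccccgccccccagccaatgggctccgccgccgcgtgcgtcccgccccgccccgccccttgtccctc
Hk2 has 2 separate matches, and in Bnip3 the 2 strands match at 1 place as CACGTG. Other stretches with CGTG or its reverse complement CACG, such as gcgtg in Bnip3, were not searched and are left in lower case. Of the 26 list genes, 22 had a promoter window of 300 bases (250 before and 50 after the start), and 18 of these had a match in at least 1 window. By window, 19 of 28 matched, against 19.6% of all 32851 windows, and 7.15% of all windows held CACGTG. The list was written as genes induced through these factors, so this comparison is no test of S586E. The windows were not matched for base composition. The letters describe these windows and show no binding.

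The level of the hypoxia-induced list differed among libraries of the same construct. Its median deviation from the mean of the 10 resting libraries was 0.14 and 0.52 on the log2 scale in WT replicates 1 and 2, and -0.28, -0.18 and -0.36 in S586E. NT was at 0.09 and 0.61 and vector at -0.14, -0.02 and -0.33. Both WT and both NT libraries were thus above all vector and S586E libraries at rest. Under KCl, Hk2 and Slc16a3 of this list did not keep NT above vector. Hk2 was there at 10.4 to 25.2 CPM with vector and 2.61 to 14.7 CPM with NT. Slc16a3 was at 21.8 to 25.9 CPM with vector and 8.00 to 26.5 CPM with NT. The list level was not taken under KCl. For glycolysis at rest WT was at 0.14 and 0.27 and S586E at -0.08, -0.08 and -0.30. Without WT replicate 2 the hypoxia-induced count was 9 lower (median -0.35) and the glycolysis count 4 lower; without WT replicate 1 the hypoxia-induced median was -0.84.

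**Figure D4:**
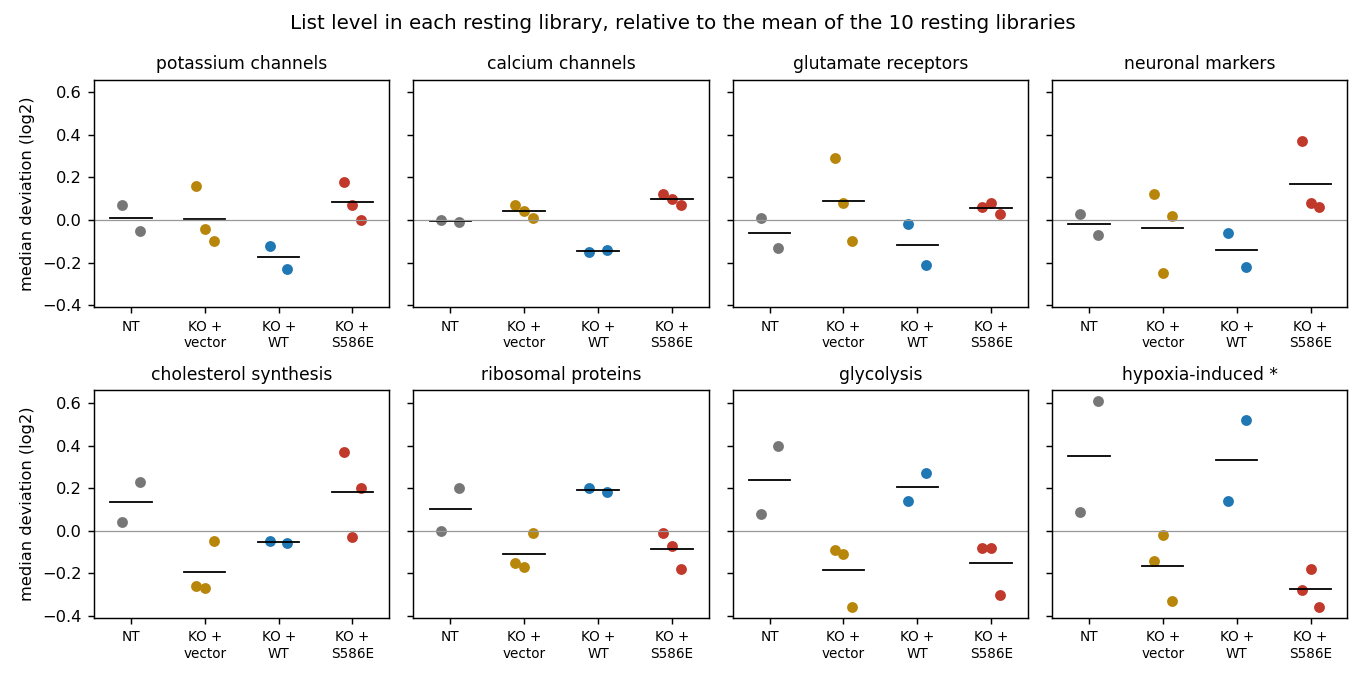
Median over list members of the log2 deviation from the mean of the 10 resting libraries, for 8 lists: points are libraries and bars are group means. Calcium channels are lowest in both WT libraries (-0.15 and -0.14) and ribosomal proteins are high in both (0.20 and 0.18), while the hypoxia-induced list is spread within NT (0.09 and 0.61) and WT (0.14 and 0.52).

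Genes of cholesterol synthesis were on the higher side with S586E, with 8 of 19 higher and 0 lower (median 0.21). Srebf2, the transcription factor that drives the pathway, was at 181 and 181 CPM in WT and at 258, 218 and 231 CPM in S586E, without overlap (log2 fold change 0.38, adjusted p = 0.118). Idi1 (0.42), Sqle (0.28) and Fdft1 (0.37), enzymes of the pathway, were also higher. In each of these, S586E replicate 1 was the highest and replicate 2 the lowest of the S586E libraries. The count was 4 with the replicate number as a block, 5 without WT replicate 1, 2 without WT replicate 2 and 2 without S586E replicate 1.

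Genes of the unfolded protein response of the endoplasmic reticulum had 4 of 12 lower and 0 higher (median -0.24). Ddit3, the stress factor CHOP, was at 57.1 and 85.9 CPM in WT and at 30.9, 41.5 and 56.1 CPM in S586E, so that the highest S586E library was just below the lower WT library (log2 fold change -0.74). Xbp1 (-0.43), Trib3 (-0.73) and the chaperone gene Dnajb9 (-0.23) were the others. Heat shock genes had 1 of 11 lower (median -0.09).

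Other subunits of BAF-type complexes were divided in direction. Of 28 subunit genes, Smarcc2 included, 3 were higher and 3 lower (median 0.09). Besides Smarcc2, Bicra (0.29), the subunit of the non-canonical complex, and Arid2 (0.16), of the PBAF complex, were higher. Phf10 (-0.32) and Brd7 (-0.20), both of PBAF, and Brd9 (-0.27), of the non-canonical complex, were lower. Phf10 was at 85.3 and 94.3 CPM in WT and at 64.1, 72.2 and 80.0 CPM in S586E. Polycomb genes, whose products oppose BAF at many promoters, had 2 of 16 higher (Jarid2, 0.26, and Cbx6, 0.32) and 2 lower (Cbx7, -0.34, and Ezh1, -0.25). Of 9 Chd remodeller genes, Chd6 (0.28) and Chd9 (0.19) were higher.

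Early-response genes, the transcription factors and signalling genes induced within minutes of depolarization, had 1 of 24 higher and 1 lower (median -0.05; 0.02 with the replicate block). Fos was at 5.08 and 4.65 CPM in WT and at 2.75, 3.90 and 3.60 CPM in S586E (log2 fold change -0.50, adjusted p = 0.817). Arc was at 44.1 and 41.9 CPM in WT and at 35.9, 51.3 and 48.6 CPM in S586E, with overlapping groups (0.08, adjusted p = 0.841). The higher gene was Egr2, at 0.474 and 0.0475 CPM in WT and 0.769, 1.73 and 0.575 CPM in S586E, and the lower gene was Atf3, at 3.56 and 4.04 CPM in WT and 1.54, 2.69 and 1.57 CPM in S586E. Of 11 late-response genes 2 were higher (median 0.10), among them the neurotrophin gene Bdnf, at 9.96 and 8.17 CPM in WT and 14.8, 11.6 and 19.2 CPM in S586E (0.75).

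Markers of other cell types were measured in the same libraries. The 10 astrocyte markers summed to 1090 to 1280 CPM in WT and 1335 to 1444 CPM in S586E, with 1 higher and 0 lower. Their median was -0.07, but 0.17 with the replicate block, 0.03 with effective-length offsets, 0.05 without WT replicate 1 and 0.10 without WT replicate 2. Single markers lay on either side: the glutamate transporter gene Slc1a2 was at 801 and 665 CPM in WT and 994, 871 and 993 CPM in S586E (0.38), whereas Gja1, the main astrocyte gap junction gene, was at 27.3 and 24.1 CPM against 14.6, 15.3 and 13.4 CPM (-0.83). The 5-library fit called Gja1 lower, and with it Apoe, a lipid carrier made mainly by astrocytes, at 264 and 301 CPM in WT and 180, 191 and 183 CPM in S586E (-0.61; edgeR adjusted p over all resting and depolarized groups = 0.564). The 7 markers of oligodendrocyte precursors had 2 lower (median -0.89) and summed to 16 to 23.2 CPM in WT and 16 to 21.3 CPM in S586E. Their sum was 78.3 and 122 CPM in NT and 25.1, 14.7 and 7.51 CPM in vector. Sox10 was at 0.142 and 0.617 CPM in WT and 0, 0.0867 and 0.0522 CPM in S586E. Microglial markers passed the low-count filter in 4 of 9 cases and summed to 27.2 to 31.2 CPM in WT and 22.6 to 25.9 CPM in S586E. Proliferation genes had 2 of 11 lower (median -0.24), fibroblast and vessel genes 0 of the 7 tested of 10, and interferon-response genes 0 of 11 in either direction. The part of these cells in the neuronal and metabolic lists was not tested.

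Each group was also placed against the NT and vector libraries, counting a group as outside when all its libraries lay beyond their range. Of the 10 genes named by rank as higher, WT alone lay outside the range of the 5 NT and vector libraries in 6, S586E alone in 1, both in 2 and neither in 1. Of the 10 named as lower, WT alone did so in 2, S586E alone in 5 and neither in 3. Among all 1310 genes higher at an unadjusted p under 0.05, WT alone lay outside in 24% and S586E alone in 9.39%; among the 1386 lower these shares were 17% and 12.6%, and among all genes tested 7.18% and 3.03%. WT has 2 libraries and S586E 3, so WT can lie wholly outside a range more easily. Against vector, list medians were 0.07 with S586E and 0.39 with WT for glycolysis, and -0.15 and 0.50 for the hypoxia-induced list. They were 0.16 and -0.02 for postsynaptic scaffold genes and the same for presynaptic release genes. For neuronal markers they were 0.19 and -0.13, and for cholesterol synthesis 0.38 and 0.15. Both contrasts share the vector libraries.

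The other substitution at the same residue, S586A, was set against WT under KCl in other libraries, and no test of the difference between the substitutions was made. There the median log2 fold change was 0.13 for ribosomal proteins (S586E at rest -0.27), 0.15 for glycolysis (-0.34), 0.06 for the hypoxia-induced list written after values had been seen (-0.60), -0.04 for potassium channels (0.28), 0.03 for calcium channels (0.28), -0.08 for glutamate receptors (0.20) and -0.08 for cholesterol synthesis (0.21). Tnr (-0.04), Plxna4 (-0.01), Kcnq3 (-0.21), Slc16a3 (0.06) and Hk2 (-0.20) had small values with S586A beside 0.67, 0.59, 0.70, -1.93 and -3.14 with S586E. Hipk4 had positive values with both (0.59 with S586A and 0.91 with S586E), and Cdc25b negative values with both (-0.39 and -1.0). State and substitution cannot be told apart in these values.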

How the data were processed

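RNA was ribosomal-depleted and sequenced paired-end, per the labels' protocols. The submitters' processing notes name FastQC, cutadapt and kallisto. Estimated counts per transcript were deposited by the authors, with effective lengths, per the file headers; TPM values deposited by the authors served only as weights. Genome build and annotation are not given in the sources used here: 141429 of 142552 transcripts (99.2%) matched GENCODE M21 (GRCm38), and the rest held at most 0.441% of counts. Gene values are sums over the transcripts of each of 55177 genes, rounded to whole counts. edgeR 4.0.16 (R 4.3.3; quasi-likelihood F test, two-sided, TMM, filterByExpr, Benjamini-Hochberg) was fitted to the 20 libraries of day 18 in 8 groups (12 residual degrees of freedom; common biological coefficient of variation 14.6%), and genes were called at an adjusted p under 0.05. CPM are TMM-normalised. Named genes are Smarcc2, Smarcc1, the 10 smallest p in each direction with a mean of at least 1 CPM and no overlap, list members, and leading calls of DESeq2 1.42.0 and of the 5-library fit. Members and lists were chosen with earlier results of these data known. The test was checked on simulated counts. Some list members are not reported here by name; they are kept in the counts and medians.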

Additional observations from a re-analysis of the deposited data

How the results depend on the processing

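The number of genes called depended on the filter, the samples fitted and the design. The edgeR test as described called 0 genes (2696 at an unadjusted p under 0.05), also with median-of-ratios size factors, with GC offsets and without mitochondrial, ribosomal and small structural RNA genes. edgeR called 43 in the 5-library fit and 782 with no low-count filter. In the latter fit the median prior degrees of freedom were infinite (6.42 in the main fit). Genes there took their spread from the shared trend, so its adjusted p values can be far too small. DESeq2, which was given all genes but leaves those with few counts out of the adjustment, called 330. Effective-length offsets called 1 gene, Arhgap27 (-1.56, against -0.55). Leaving out 1 library gave 0 to 1 calls, the 1 being Rnu3a without S586E replicate 1, and 1447 (without WT replicate 2) to 2528 genes at an unadjusted p under 0.05. Between resting WT and S586E, deviations from the group means correlated weakly for equal replicate numbers (r = 0.0911 and 0.0341). The 2 WT libraries deviate as mirror images, so these are not separate checks, and pairing in other groups was not examined. A replicate block over all 20 libraries called 43 genes.

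Of 1772 values of 137 named genes under 13 alternatives, 1584 kept direction and side, 180 passed the threshold and 8 reversed: Smarcc1 (-0.04 without S586E replicate 1), Stat2 (-0.01; 0.05 with effective-length offsets, 0.02 with GC offsets, and, leaving out 1 library, -0.07 to 0.06) and Xist (-0.01; 0.00 with median-of-ratios size factors, 0.08 with the replicate block, and, leaving out 1 library, -0.12 to 0.13). The causes were not tested. Some genes were named because DESeq2 or the 5-library fit called them, so part of the 180 was set by that choice. The 180 also include values from the fit with no low-count filter. The list counts by setting and the lists of guidance and hypoxia-induced genes were added after seeing the data. Where 1 WT library is left, it is assumed to vary like the other groups.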
